A study of Mus musculus with 6 samples.

Results

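The Id proteins and the E proteins are described here in Naive, Th17 and Th1 cells of the mouse by the counts of 6 genes, *Id1*, *Id2*, *Id3*, *Tcf3*, *Tcf4* and *Tcf12*. They were taken from the count files by gene symbol, and all 6 were found among the 24223 genes counted. All 6 also passed the filter on low counts, as did 13607 genes in all. There were 6 libraries of polyadenylated RNA, 2 for each cell type. Naive cells were CD4+CD44- T cells isolated by a magnetic kit from pooled lymph nodes and spleens of C57BL/6 mice aged 1 to 2 months, without genetic change. Th17 and Th1 cells were such cells activated through CD3 and CD28 and harvested on the fifth day of culture. Th17 cultures held TGF-β, IL-6, IL-1β and IL-23 with antibodies against IL-4 and IFN-γ, and Th1 cultures held IL-12, IL-2 and the antibody against IL-4. Naive cells were not cultured, so activation, culture and polarization cannot be told apart in a comparison with Naive.

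E proteins are transcription factors of the basic helix-loop-helix family. They bind DNA as dimers at E-boxes, short sites of the form CANNTG, and *Tcf3* encodes E2A (E12 and E47), *Tcf12* encodes HEB and *Tcf4* encodes E2-2. *Tcf4* is not *Tcf7l2*, whose product is also called TCF4. Id proteins have the helix-loop-helix but no basic region, so that they pair with E proteins and keep them from DNA. In T cells, E proteins act in thymic development and in the naive state, whereas *Id2* and *Id3* are known for effector and memory T cells. Transcript counts do not report protein or dimers.

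The genes are spread over 6 chromosomes of GRCm38 (mm10), by GENCODE vM21. *Id1* lies on chromosome 2 from 152736251 to 152737410, *Id2* on chromosome 12 from 25093799 to 25097140 and *Id3* on chromosome 4 from 136143497 to 136145755. *Tcf3* lies on chromosome 10 from 80409514 to 80433647 and *Tcf12* on chromosome 9 from 71842688 to 72111871. The Id genes are short, between 1160 and 3342 bases, while *Tcf3* spans 24134, *Tcf12* 269184 and *Tcf4* 345724 bases. No annotated exon of another gene overlapped an exon of the 6 genes.

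Promoters are shown for the pair of Id genes that were called with opposite signs in Th1 and for the pair of E protein genes whose values were closest in all 3 comparisons. Each runs from 250 bases before to 50 bases after a RefSeq start on GRCm38.p6, 5′ to 3′ on the strand of the gene, with matches to CANNTG in capitals.
Id2, chr12:25096043-25096342, minus strand: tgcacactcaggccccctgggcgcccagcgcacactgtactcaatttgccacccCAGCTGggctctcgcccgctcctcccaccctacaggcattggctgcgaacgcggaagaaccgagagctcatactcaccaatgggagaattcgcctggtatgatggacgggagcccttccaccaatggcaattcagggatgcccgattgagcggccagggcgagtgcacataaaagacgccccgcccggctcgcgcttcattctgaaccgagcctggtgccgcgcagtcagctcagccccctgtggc
Id3, chr4:136143572-136143871, plus strand: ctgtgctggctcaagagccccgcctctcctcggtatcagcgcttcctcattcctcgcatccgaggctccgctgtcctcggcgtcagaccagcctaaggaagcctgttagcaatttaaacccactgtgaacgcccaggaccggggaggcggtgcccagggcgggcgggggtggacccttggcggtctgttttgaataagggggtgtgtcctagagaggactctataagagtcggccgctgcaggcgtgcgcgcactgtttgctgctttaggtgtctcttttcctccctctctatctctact
Tcf3, chr10:80433586-80433885, minus strand: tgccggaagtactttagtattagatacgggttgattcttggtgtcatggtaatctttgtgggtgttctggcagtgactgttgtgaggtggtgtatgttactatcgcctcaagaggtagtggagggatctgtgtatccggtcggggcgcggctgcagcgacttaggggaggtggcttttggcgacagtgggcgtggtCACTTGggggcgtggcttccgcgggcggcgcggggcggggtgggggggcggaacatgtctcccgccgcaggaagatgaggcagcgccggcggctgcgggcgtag
Tcf12, chr9:72111770-72112069, minus strand: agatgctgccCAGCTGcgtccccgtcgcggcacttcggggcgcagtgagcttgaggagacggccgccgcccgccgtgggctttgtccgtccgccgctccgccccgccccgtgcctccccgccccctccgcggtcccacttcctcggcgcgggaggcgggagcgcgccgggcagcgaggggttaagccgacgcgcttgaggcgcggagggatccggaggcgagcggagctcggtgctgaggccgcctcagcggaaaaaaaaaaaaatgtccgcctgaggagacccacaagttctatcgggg
*Id2*, *Tcf3* and *Tcf12* held 1 match each, at positions -196, -54 and -240 from the start, and *Id3* held 0. The match was CAGCTG in *Id2* and *Tcf12*. For *Tcf12* the most upstream of 3 starts is shown. CANNTG, searched on both strands, was in 72.3% of 32851 promoters of this length and CAGCTG in 16.3%, so that these matches describe the sequences and do not set them apart. The GC content was 63.3% for *Id2*, 60% for *Id3*, 61.7% for *Tcf3* and 71.7% for *Tcf12*.

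Library totals lay between 17742158 and 69080017 counts, with replicate 1 the deeper of each pair. Expression values are CPM scaled by TMM, a factor for the makeup of each library, with the mean ± SD of 2 libraries. The labels were checked by markers. *Il17a* was at 526 and 690.5 CPM in Th17 and at 0.541 CPM or less in the other 4 libraries, and *Tbx21* was at 138 and 158 CPM in Th1 and at 23.3 CPM or less elsewhere. *Ccr7*, a homing receptor of naive T cells, did not separate the cell types, with between 296 and 523 CPM over all 6 libraries. Markers of other cells were present. The 9 genes of neutrophils and their precursors summed to 3103 and 3489 CPM in Th17, to 400 and 229 CPM in Naive and only to 36.7 and 51.5 CPM in Th1, and an erythroid list of 9 genes, whose globin genes had no counts, to 668 and 124 CPM in Naive and between 12.7 and 92.4 CPM elsewhere. In such bulk samples, fewer cells of a type and less RNA per cell cannot be told apart.

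Between cell types, genes were compared by edgeR's quasi-likelihood test across all 13607 genes. To be called, a gene had to change by more than 2-fold (1 on the log2 scale) and to have a p-value below 0.01 after Benjamini-Hochberg adjustment. Between Th17 and Naive, edgeR called 2 of the 6 genes against 5.43% of all genes tested. These were *Id1* and *Id2*, both up-regulated, like 4.01% of all genes, and none of the 6 was among the 1.43% that were down-regulated. DESeq2 called 4 (12.6% of all genes), and 5 had an unadjusted p-value under 0.05 (33.3%). Between Th1 and Naive, edgeR called 2 against 7.45%, with *Id2* among the 4.64% of genes up-regulated and *Id3* among the 2.81% down-regulated. DESeq2 also called 2 (14.1%), and 2 had an unadjusted p-value under 0.05 (29.9%). Between Th1 and Th17, edgeR called 0 of the 6 against 5.53%, of which 2.7% were up-regulated and 2.83% down-regulated in Th1. Here 4 had an unadjusted p-value under 0.05 (33.8%) and DESeq2 called 2 (13.5%). Groups of 2 libraries did not overlap in CPM for 5, 3 and 6 of the 6 genes in these comparisons, against 65.5%, 56% and 66.6% of all genes, so that a lack of overlap alone says little.

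**Figure D1:**
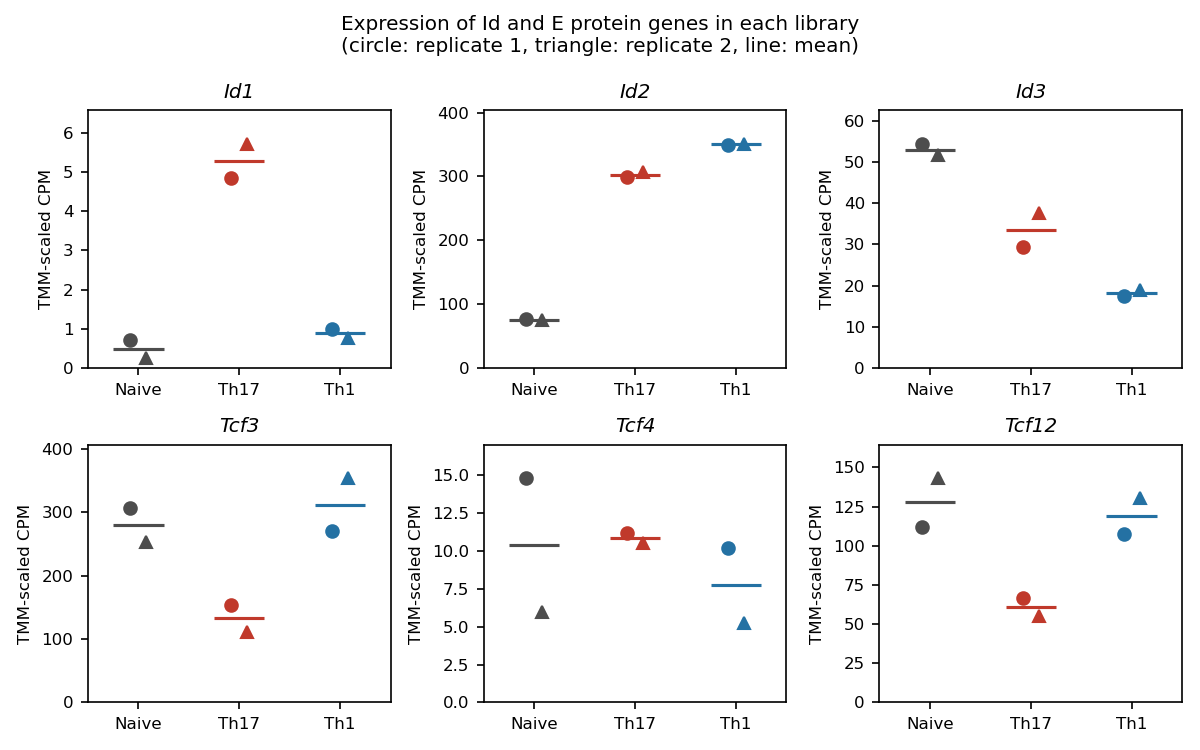
TMM-scaled CPM (vertical axis, linear from 0, a different range in each panel) of the 6 genes in Naive, Th17 and Th1 libraries, with circles for replicate 1, triangles for replicate 2 and a line at the mean. *Id2* was near 75 CPM in Naive and above 298 CPM in the other 4 libraries, and the Th17 libraries were the lowest for *Tcf3* and *Tcf12*.

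*Id2* had the most transcripts of the 3 Id genes in Th17 and Th1. Its product is the Id protein required by innate lymphoid cells and by effector CD8 T cells. It had 76.2 and 74.8 CPM in the Naive libraries, 298 and 307 CPM in Th17 and 349 and 351 CPM in Th1. The replicates lay within a few percent of each other, and each Th17 and Th1 library was far above both Naive libraries. *Id2* rose 4.01-fold in Th17 (log2 fold change 2.00, standard error [SE] 0.26, adjusted p = 0.0011 by edgeR) and 4.64-fold in Th1 (2.21, SE 0.26, adjusted p = 5.6e-04). It was called in both comparisons with each of the 6 libraries left out in turn, with log2 fold changes from 1.98 to 2.05 in Th17 and from 2.199 to 2.26 in Th1. The difference between Th1 and Th17 was a log2 fold change of 0.21, or -0.0035 by library size alone, with a 95% interval from -0.35 to 0.77, and was not called. Of the 9 neutrophil markers, 6 rose and 1 fell in Th17, and in Th1, where *Id2* was at 350.1 ± 1.18 CPM, 4 rose and 4 fell. Their part in the *Id2* result was not tested.

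*Id3* moved the other way. It is induced by T cell receptor signals through Egr factors and acts in γδ, regulatory and memory T cells. Its values were 54.3 and 51.6 CPM in Naive, 29.4 and 37.6 CPM in Th17 and 17.5 and 18.8 CPM in Th1. The cell types did not overlap. That held for 65.5% of all genes between Th17 and Naive, 56% between Th1 and Naive and 66.6% between Th1 and Th17. *Id3* fell in Th1 to 0.343 times its Naive level (log2 fold change -1.54, SE 0.28, adjusted p = 0.0049 by edgeR). This call was near the threshold. It was kept without Th17 replicate 2 and lost with any other library left out, at log2 fold changes between -1.59 and -1.45 and adjusted p-values of 0.020 without Naive replicate 1, 0.011 without Naive replicate 2, 0.011 without Th17 replicate 1, 0.034 without Th1 replicate 1 and 0.021 without Th1 replicate 2. In Th17 the log2 fold change was -0.66 (SE 0.27, adjusted p = 0.12), and between Th1 and Th17 it was -0.88 (SE 0.27, adjusted p = 0.054), and neither was called.

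*Id1* was scarce. It is best known as a target of BMP signals through Smad proteins and is expressed in endothelial and progenitor cells. It had 48 and 5 counts in Naive, 317 and 101 counts in Th17 and 65 and 12 counts in Th1, which is 0.704 and 0.248 CPM, 4.85 and 5.71 CPM, and 1.01 and 0.759 CPM. The Th17 libraries were above all others. *Id1* rose 10.3-fold in Th17 relative to Naive (log2 fold change 3.36, SE 0.61, adjusted p = 0.0061 by edgeR). Without Naive replicate 1 the log2 fold change was 4.39 (adjusted p = 0.0086). The call was lost without Naive replicate 2 (2.89, adjusted p = 0.022), without Th17 replicate 1 (3.50, adjusted p = 0.030) and without Th17 replicate 2 (3.26, adjusted p = 0.033), and at the depth of the smallest library (3.14, adjusted p = 0.018). In Th1 relative to Th17 the log2 fold change was -2.55 (SE 0.59, adjusted p = 0.019), which edgeR did not call and DESeq2 did (adjusted p = 5.9e-04). In that comparison edgeR called it without Naive replicate 1 (-2.55, adjusted p = 0.0083) and without Naive replicate 2 (-2.54, adjusted p = 0.0072). Between Th1 and Naive it was 0.81 with a 95% interval from -0.50 to 2.13. Markers of other cells also differed between the cell types. The neutrophil list was above 10 CPM for 9 of 9 genes in both Th17 libraries, 4 and 3 in Naive and 0 and 2 in Th1. The mast cell and basophil list summed to 227 and 469 CPM in Th17, against 77.1 and 26.1 CPM in Naive and against 64.9 and 48.5 CPM in Th1. Of 8 macrophage and dendritic cell genes 7 were counted, and they summed to 13.8 and 46.9 CPM in Th17, against 23.7 and 9.26 CPM in Naive and against 7.60 and 4.61 CPM in Th1. The 8 B cell markers summed to 27.9 and 21.0 CPM in Th17, against 16.1 and 12.6 CPM in Naive and against 5.75 and 4.74 CPM in Th1, and 1 of them, *Ebf1*, was called in Th17 (adjusted p = 0.0036 by edgeR), with 1 and 0 counts in Naive, 108 and 27 counts in Th17 and 5 in each Th1 library. The part of all these markers in the *Id1* result was not tested.

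*Id4*, the remaining Id gene, had 0 counts in the Naive and Th17 libraries and 1 count in each Th1 library. These are under the limit of 3 counts per library, and it was not tested.

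Among the E proteins, *Tcf3* and *Tcf12* shared a pattern in which the Th17 libraries were low. *Tcf3* had 307 and 254 CPM in Naive, 154 and 111 CPM in Th17 and 271 and 354 CPM in Th1. Both Th17 values were below the other 4, and the Naive and Th1 libraries overlapped. The log2 fold change in Th17 relative to Naive was -1.08 (SE 0.30, adjusted p = 0.036), and that in Th1 relative to Th17 was 1.23 (SE 0.30, adjusted p = 0.022). Neither was called by edgeR, and both were called by DESeq2, with adjusted p-values of 0.0052 and 7.9e-04. Between Th1 and Naive the log2 fold change was 0.16, or -0.10 by library size alone, with a 95% interval from -0.50 to 0.81.

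*Tcf12* had 112 and 143 CPM in Naive, 66.5 and 55.3 CPM in Th17 and 108 and 131 CPM in Th1. Again both Th17 libraries were lowest and the Naive and Th1 libraries overlapped. The log2 fold change in Th17 relative to Naive was -1.07 (SE 0.27, adjusted p = 0.026), not called by edgeR and called by DESeq2 at an adjusted p-value of 0.0035. In Th1 relative to Th17 it was 0.97 (SE 0.27, adjusted p = 0.036), and it was not called by edgeR or by DESeq2, whose log2 fold change of 0.97 was under the minimum of 1 (adjusted p = 0.0079). Between Th1 and Naive it was -0.10, with an interval from -0.69 to 0.49. With each library left out, the values in Th17 relative to Naive stayed between -1.33 and -0.86 for *Tcf3* and between -1.23 and -0.89 for *Tcf12*, below 0 in all 6 fits and called by edgeR in 0 of them. The 7 T cell markers, not called by edgeR in this comparison, had log2 fold changes from -1.02 for *Cd5* to 0.98 for *Cd3d* and a median of -0.28. The part of other cells in the *Tcf3* and *Tcf12* values was not tested.

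*Tcf4*, which B cells and plasmacytoid dendritic cells need, was low and varied within groups. It is the E protein gene with the most annotated exon sequence, on chromosome 18 from 69343356 to 69689079. It had 14.8 and 5.99 CPM in Naive, 11.2 and 10.5 CPM in Th17 and 10.2 and 5.25 CPM in Th1. The Naive replicates differed more than any pair of group means. Its log2 fold changes were 0.05 in Th17 and -0.43 in Th1 relative to Naive and -0.48 in Th1 relative to Th17, with 95% intervals from -1.03 to 1.13, from -1.51 to 0.66 and from -1.56 to 0.61, which all include a 2-fold difference. Without Naive replicate 1 the value in Th1 relative to Naive was 0.38. A list of 6 genes of plasmacytoid dendritic cells summed to 73.2 and 123 CPM in Naive, mostly from *Pacsin1* and *Ccr9*, and to between 12.3 and 22.6 CPM elsewhere, with *Siglech* at most at 0.352 CPM. The 8 B cell markers were each below 10 CPM in every library. The part of these cells was not tested. In Naive, replicate 1 was the higher both for *Tcf4* and for the summed erythroid markers (668 against 124 CPM). In Th1, replicate 1 was the higher for *Tcf4* and the lower for these markers (55.8 against 92.4 CPM, mostly *Gata1*). The same held in Th17 (12.7 against 14.1 CPM). The part of erythroid cells in the *Tcf4* values was not tested.

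**Figure D2:**
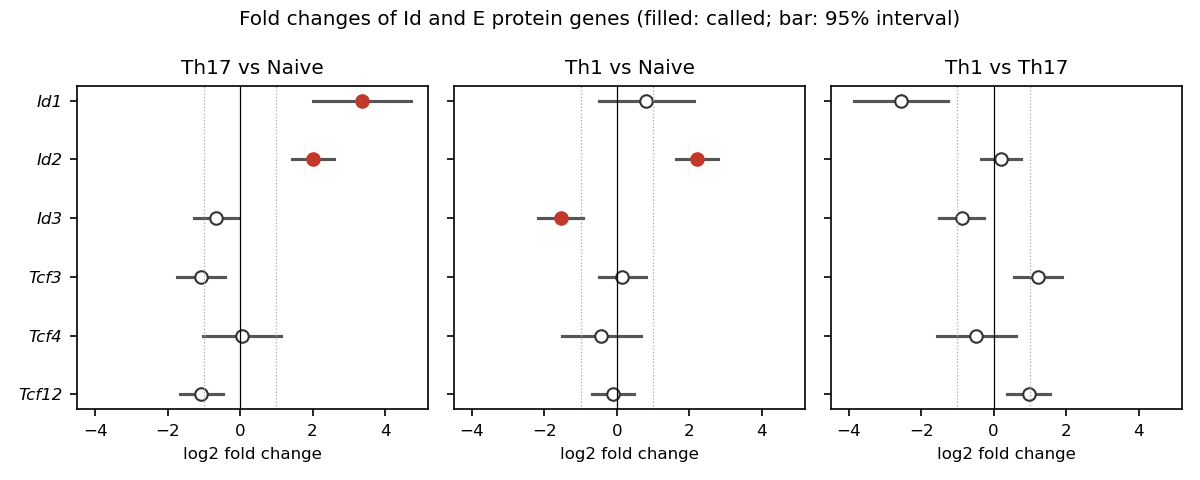
Log2 fold changes (horizontal axis) of the 6 genes by edgeR in Th17 relative to Naive, Th1 relative to Naive and Th1 relative to Th17, with 95% intervals as bars, dotted lines at a change of 2-fold and filled points for called genes. The filled points are *Id1* (3.36) and *Id2* (2.00) in Th17, and *Id2* (2.21) and *Id3* (-1.54) in Th1.

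To compare levels between genes, CPM were divided by the length of all annotated exons. On this scale of CPM per kb, the order in Naive was *Tcf3* (69.3), *Id2* (31.0), *Id3* (29.6), *Tcf12* (8.22), *Id1* (0.410) and *Tcf4* (0.379). In Th17 it was *Id2* (124), *Tcf3* (32.8), *Id3* (18.7), *Id1* (4.55), *Tcf12* (3.92) and *Tcf4* (0.396), and in Th1 *Id2* (144), *Tcf3* (77.3), *Id3* (10.1), *Tcf12* (7.67), *Id1* (0.760) and *Tcf4* (0.282). *Tcf3* led in Naive and *Id2* in Th17 and Th1, with no overlap with the next gene. *Id2* and *Id3* in Naive lay within 2 SDs of each other (SD 0.408 and 1.09), and *Id1* and *Tcf12* in Th17, and *Id1* and *Tcf4* in Naive, overlapped. The exons of *Tcf4* and *Tcf12* come from 62 and 21 transcripts, and their long summed length lowers their values per kb. *Tcf4* was also low before this division, with a mean of 10.4 CPM in Naive, 10.8 in Th17 and 7.72 in Th1. With the longest coding transcript as the length, *Id3* (41.4) was above *Id2* (38.4) in Naive, *Tcf4* was above *Id1* in Naive and Th1, and *Tcf12* was above *Id1* in Th17 and above *Id3* in Th1. *Tcf3* still led in Naive and *Id2* in the other cell types.

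The 3 Id genes summed to 62.2 and 59.7 CPM per kb in Naive, 143 and 152 in Th17, and in Th1 to 154 and 155. In Naive the sum was shared between *Id2* (50.3% and 51.4%) and *Id3* (48.8% and 48.2%). In Th17 *Id2* made up 85.6% and 82.9%, and in Th1 93.1% and 92.8%. So the Naive libraries held near-equal parts of *Id2* and *Id3*, and the Th1 libraries held almost only *Id2*. The 3 E protein genes summed to 83.7 and 72.2 CPM per kb in Naive, 42.9 and 31.4 in Th17, and in Th1 to 74.3 and 96.2, with *Tcf3* between 86.9% and 91.1% of the sum.

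The ratio of the Id sum to the E protein sum is formed within a library and does not depend on the scaling between libraries. Its log2 values were -0.43 and -0.27 for Naive, 1.74 and 2.27 for Th17 and 1.05 and 0.69 for Th1, so that the 3 cell types did not overlap. The mean was higher than in Naive by 2.35 in Th17 and by 1.22 in Th1 on the log2 scale, while the SD within a cell type was between 0.11 and 0.38. Between Th1 and Th17 the difference was -1.13. With 2 libraries a group no exact permutation test can pass 0.05, and none was made. The Id sums of Th17 and Th1 were close, at 147 ± 6.18 and 154 ± 0.856 CPM per kb, and their E protein sums were 37.2 ± 8.13 and 85.2 ± 15.4. With the mean of the log2 values of the genes, which gives *Id1* the weight of *Id2*, the differences were 0.68 in Th1 relative to Naive and -1.63 in Th1 relative to Th17. The sign of the ratio within a library depends on such choices. By that mean the Naive values were 0.32 and 0.19. With raw counts in place of counts per kb, the Th1 values were -0.079 and -0.40.

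**Figure D3:**
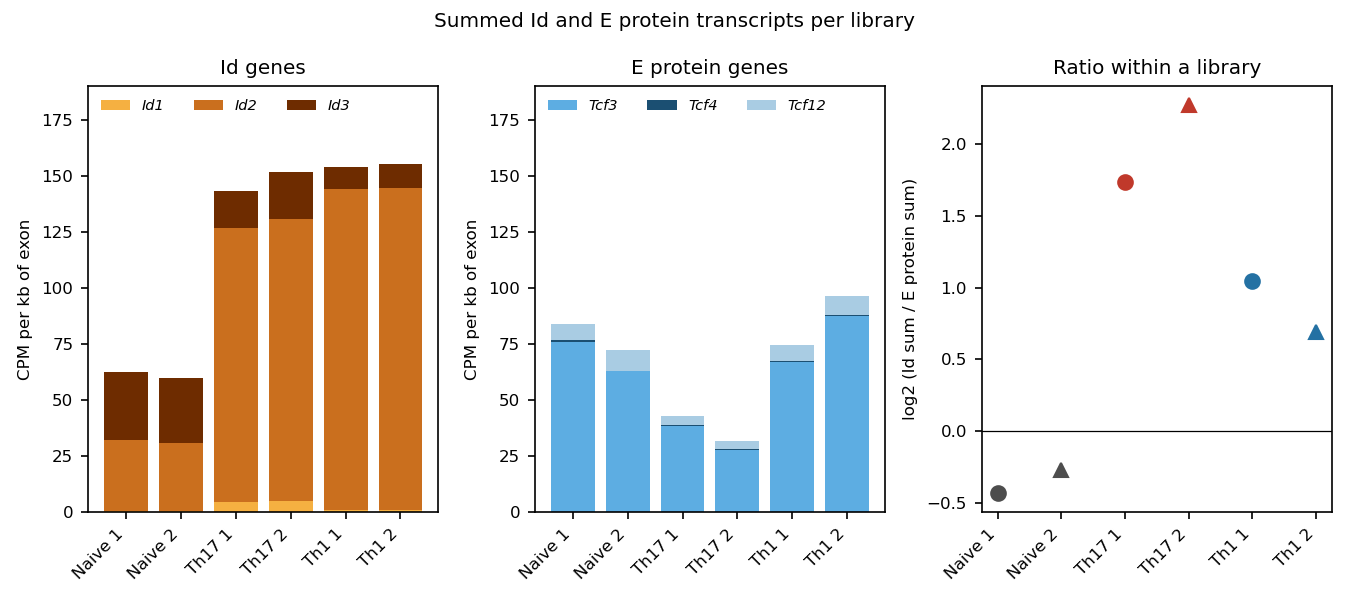
Stacked CPM per kb of exon of the 3 Id genes (left) and the 3 E protein genes (middle) in each library, from 0 on the same axis, and the log2 ratio of both sums (right, circles for replicate 1 and triangles for replicate 2). The Id sums are 59.7 and 62.2 in Naive and at least 143 elsewhere, the E protein sums are lowest in Th17 at 42.9 and 31.4, and the ratio is below 0 in Naive and highest in Th17.

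Partners and cofactors of the E proteins were read from a list of 17 genes, of which 13 were tested. In Th17 relative to Naive 2 rose and 0 fell, the median log2 fold change being -0.84 against -0.02 over all genes, and in Th1 relative to Naive 2 rose and 5 fell, with a median of -0.68 against -0.02. These are 15.4% and 53.8% of the list, beside 5.43% and 7.45% of all genes. *Bhlhe40*, a helix-loop-helix repressor that supports cytokine production by T helper cells, had 8.76 and 8.42 CPM in Naive, 116 and 114 CPM in Th17 and 376 and 507 CPM in Th1. It rose in both cell types, with log2 fold changes of 3.74 (SE 0.30) and 5.68 (SE 0.32), and was higher in Th1 than in Th17 by 1.94 (SE 0.27, adjusted p = 0.0019). *Msc*, encoding the repressor musculin, had 2 counts in each Naive library, 916 and 191 in Th17 and 101 and 23 in Th1. It was called in all 3 comparisons. Its summed, depth-scaled counts in Th17 were 294 times those in Naive, with an exact 95% interval from 115 to 1082 that covers counting error only, and its log2 fold change between Th1 and Th17 was -3.04 (SE 0.48, adjusted p = 0.0033).

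The genes of this list that fell in Th1 were *Tal1*, *Lyl1*, *Lmo2*, *Cbfa2t3* and *Lmo4*, and none of these 5 was called in Th17. They were lower in Th17 than in Naive too, with log2 fold changes of -2.55, -1.04, -2.99, -2.71 and -1.26 in this order. The adjusted p-values by edgeR were 0.048, 0.21, 0.016, 0.022 and 0.014. None of these 5 was called between Th1 and Th17. *Tal1*, *Lyl1* and *Lmo2* encode partners of E proteins in blood progenitors and erythroid cells, and *Cbfa2t3* encodes a corepressor. *Tal1* had 98.2 and 12 CPM in Naive, 7.22 and 11.8 CPM in Th17 and 2.49 and 1.71 CPM in Th1, and *Lmo2* had 111 and 20.3 CPM, 7.96 and 8.71 CPM and 3.40 and 2.09 CPM. Both were over 5 times higher in Naive replicate 1 than in replicate 2, as were the summed erythroid markers, whose part was not tested. Naive replicate 1 was also the higher for *Lyl1* (35.5 against 12.8 CPM) and *Cbfa2t3* (26.7 against 6.73 CPM). *Lmo4*, without this split, had 92.6 and 90.4 CPM in Naive, 44.0 and 32.6 CPM in Th17 and 23.4 and 24.8 CPM in Th1 (log2 fold change in Th1 -1.93, SE 0.27, adjusted p = 0.0015).

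Of 12 genes described as targets of E proteins, 9 were tested, and *Rag1*, *Rag2* and *Ptcra* had too few counts. In Th17 relative to Naive 2 rose, *Cdkn1a* among them, and 1 fell (*Cxcr5*), the median log2 fold change being -0.30, and in Th1 1 rose (*Cdkn1a*) and 2 fell (*Cxcr5* and *Foxp3*), with a median of 0.33. That is 33.3% of the list in each, beside 5.43% of all genes in Th17 and 7.45% in Th1. *Cxcr5*, the chemokine receptor of follicular helper cells, had 19.2 and 25.8 CPM in Naive, 4.70 and 4.19 CPM in Th17 and 1.11 and 1.64 CPM in Th1. Its log2 fold changes were -2.34 (SE 0.38, adjusted p = 0.0037) in Th17 and -4.06 (SE 0.42, adjusted p = 3.0e-04) in Th1. *Cdkn1a*, encoding the cell cycle inhibitor p21, had 1.88 and 0.644 CPM in Naive, 128 and 65.0 CPM in Th17 and 128 and 102 CPM in Th1. Targets of the same factors thus moved in both directions within a comparison, and *Cd4*, *Notch1*, *Il7r*, *Ccr7* and *Gfi1* were not called in any of the 3.

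Upstream, 14 receptors and Smad proteins of the BMP and TGF-β pathways, which induce Id genes in many cells, were read, of which 13 were tested. In both comparisons with Naive 1 rose and 0 fell, with medians of -0.13 for Th17 and 0.10 for Th1. At 7.69% of the list this is near the share of all genes called, 5.43% and 7.45%. The gene was *Bmpr1a*, a type I BMP receptor, with 0.968 and 1.39 CPM in Naive, 16.1 and 15.6 CPM in Th17 and 14.6 and 10.9 CPM in Th1, and log2 fold changes of 3.77 (SE 0.41) and 3.46 (SE 0.40). Between Th1 and Th17 the log2 fold change of *Bmpr1a* was -0.31 (SE 0.36, adjusted p = 0.56 by edgeR). The part of *Bmpr1a* in the *Id1* result was not tested. Of the 4 Egr factors, which induce *Id3*, 2 fell in Th17 (*Egr1* and *Egr2*) and 2 in Th1 (*Egr2* and *Egr3*), 50% of the list in each. *Egr2* had 16.5 and 22.4 CPM in Naive, 3.60 and 4.92 CPM in Th17 and 3.12 and 4.93 CPM in Th1, with log2 fold changes of -2.199 (SE 0.41, adjusted p = 0.0069) and -2.29 (SE 0.41, adjusted p = 0.0048). *Egr1* went apart, with 76.8 and 107 CPM in Naive, 13.4 and 5.15 CPM in Th17 and 169 and 509 CPM in Th1, and was higher in Th1 than in Th17 by 5.17 on the log2 scale (SE 0.63, adjusted p = 9.0e-04). For Th17 the median of the Egr list was -2.53, and for Th1 it was -2.88, or -2.17 in Th1 with *Egr4* at the limit of 3 counts.

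**Figure D4:**
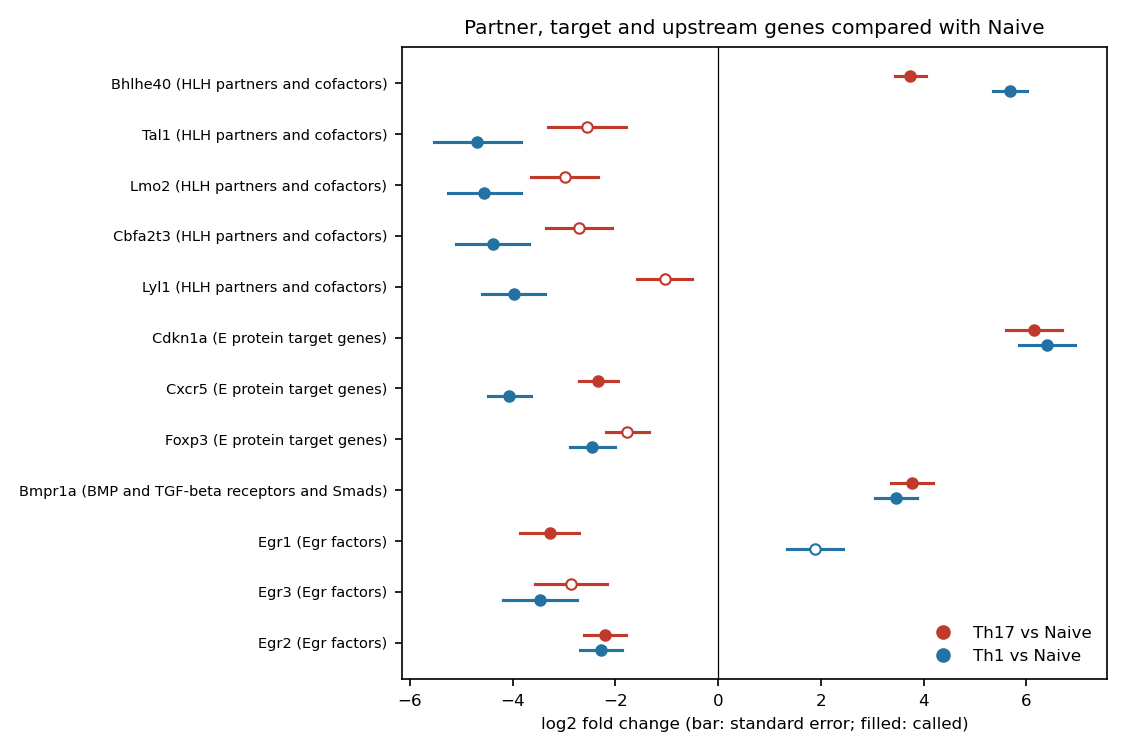
Log2 fold changes relative to Naive (horizontal axis, bars for the standard error) of the named partner, target, receptor and Egr genes in Th17 (red) and Th1 (blue), with filled points for called genes. *Bhlhe40*, *Cdkn1a* and *Bmpr1a* lie above 3 in both cell types, *Cxcr5* and *Egr2* lie below -2 in both, and *Egr1* has opposite signs. *Msc* is left out since its Naive libraries hold 2 counts each.

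For each of the 6 genes, the 3 genes with the most similar profile were taken by the Euclidean distance of centred log2 CPM over the 6 libraries. *Id1* was nearest to *Shank1* (distance 0.47), *Cd74* (0.55) and *Adm* (0.58), against a median distance of 3.94 to all other genes tested. *Cd74*, the MHC class II invariant chain, had a log2 fold change of 3.12 in Th17 and 0.86 in Th1 relative to Naive. *Id2* was nearest to *Pgam1* (0.30), *Rab34* (0.34) and *Gnb5* (0.42), with a median of 2.75, and *Id3* to *Efcab2* (0.27), *Cnn3* (0.27) and *Nnt* (0.34), with a median of 1.97. *Tcf3* was nearest to *Pgap3* (0.11), *Zfp282* (0.21) and *Tmem39b* (0.27), and *Tcf12* to *Pigv* (0.12), *Trim33* (0.15) and *Brd2* (0.16). *Tcf4* was nearest to *Nrarp* (0.23), *Nme1* (0.31) and *Cinp* (0.32). The 3 nearest were picked from all genes tested over only 6 libraries, so that distances far below the median follow from the choice. None of the 6 genes was among the 3 nearest of another, which says little with 3 places among all genes tested.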

How the data were processed

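The deposited values are raw counts per gene, 1 set for each of 6 libraries, which the authors made with HTSeq 0.13.5 from HISAT2 2.2.1 alignments to mm10. Removal of duplicates and default HTSeq parameters are given in the methods, whereas the supplementary code sets reverse-stranded counting and has no duplicate step. The labels describe a Smart-seq2 protocol, and whether strand was kept is not given in the sources used here, so that reads of antisense transcripts cannot be told apart.

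Tests were run by edgeR 4.0.16 in R 4.3.3 (filterByExpr, TMM, quasi-likelihood test, cell type as the only term, all 6 libraries in 1 fit), with DESeq2 1.42.0 as an alternative. P-values were adjusted by Benjamini-Hochberg over 13607 genes and called under 0.01 with an absolute log2 fold change above 1. Standard errors were taken from the F statistic. Log2 CPM used a prior count of 2, and 3 counts in a library was the limit of detection. The model was also run on simulated counts in which genes changed in Th17 alone, and no result here is drawn from that run. Lengths came from GENCODE vM21. Promoters came from a set built on RefSeq starts on GRCm38.p6, and the set used here held 4 of the 6 genes.

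The 6 genes and the lists were chosen with earlier results of these data known. From each list, the text names genes called in a comparison, at most 6 by size of change, and *Id4*. One gene of the target list is counted with its list and otherwise not reported here. *Lmo4* and *Egr4*, the single marker genes, and the genes of a list that are named as not called, were named after their values were seen. The labels number the replicates without saying that a number marks a shared animal or day, and p-values measure the spread between these libraries. Sequenced reads are not independent molecules, so depth covers counting error only.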

Additional observations from a re-analysis of the deposited data

Results flagged for a closer look

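The effects in Th17 and in Th1, each relative to Naive, were tested against each other by edgeR's contrast of Th1 with Th17. None of the 6 genes had an adjusted p-value under 0.01. With the 2-fold minimum, 2 of the 6 had one under 0.05, as did 2112 of the 13607 genes tested. The log2 fold changes in Th1 relative to Th17 were -2.55 for *Id1* (adjusted p = 0.019), 1.23 for *Tcf3* (adjusted p = 0.022) and 0.97 for *Tcf12* (adjusted p = 0.036). *Id1* was higher in both Th17 libraries than in both Th1 libraries, and *Tcf3* and *Tcf12* were lower. Such a lack of overlap held for all 6 genes and for 66.6% of all genes tested.

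Among the other genes named, the same contrast gave 1.94 for *Bhlhe40* (adjusted p = 0.0019), 5.17 for *Egr1* (adjusted p = 9.0e-04), -2.94 for *Lyl1* (adjusted p = 0.010), -3.04 for *Msc* (adjusted p = 0.0033) and -1.73 for *Cxcr5* (adjusted p = 0.018). No group held the 4 libraries needed to look for single outlying values.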

How the results depend on the processing

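Of the 6 genes, 4 were called in Th17 relative to Naive by DESeq2, without the filter on low counts and at an adjusted p-value under 0.05, and 1 after thinning to the smallest library or with at least 10 counts in every library, a filter that removes *Id1*. In Th1 relative to Naive 1 was called with only the 4 libraries compared. In Th1 relative to Th17 2 were called by DESeq2, without the filter, at 0.05 and by DESeq2 with the replicate block, and 1 with only the 4 libraries. With a library left out, 1 to 2, 1 to 2 and 0 to 1 were called, where the lone library of a cell type is assumed to vary like the others.

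Log2 fold changes that turned sign had not been called. With library size alone, *Tcf3* in Th1 relative to Naive was -0.10 and *Id2* in Th1 relative to Th17 was -0.0035, under a scaling that moves the median of all genes by -0.25 in Th1 relative to Naive and -0.215 relative to Th17. Relative to that median they were 0.16 and 0.24. In Th1 relative to Naive, leaving out a library turned *Tcf4* (-0.95 to 0.38), *Tcf12* (-0.27 to 0.085) and *Tcf3* (-0.045 to 0.38), and in Th17 relative to Naive it turned *Tcf4* (-0.46 to 0.86). The cause was not tested.

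The differences in the log2 ratio of the Id to the E protein sums ranged with a library left out from 2.09 to 2.62, from 1.04 to 1.40 and from -1.40 to -0.87 in Th17 and Th1 relative to Naive and in Th1 relative to Th17. With the mean of log2 values they were 0.68 in Th1 relative to Naive and -1.63 in Th1 relative to Th17. The longest coding transcript, chosen after seeing the data, kept them within 1 SD.

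Over all genes, 739, 1014 and 752 were called in Th17 and in Th1 relative to Naive and in Th1 relative to Th17. DESeq2 called 1717, 1917 and 1797, the fit without the filter 2154, 2259 and 2232, an adjusted p-value under 0.05 gave 2063, 2164 and 2112, and at least 10 counts in every library 343, 674 and 411. With a library left out they ranged from 319 to 885, from 516 to 939 and from 266 to 1016. Higher genes were 73.7% of calls in Th17 relative to Naive, or 61% by DESeq2, and 48.8% in Th1 relative to Th17, or 36.5% with library size alone. Over the 4 lists, 8, 13 and 4 genes were called. DESeq2 called 16 and 8, the fit without the filter 18 and 12, and a threshold of 0.05 gave 19 and 8, in the first and last of these comparisons. With only the 4 libraries it was 7 in the last. With a library left out the counts ran from 5 to 9, from 9 to 13 and from 2 to 7.

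The replicate block was not used, since the labels give only a number. The deviations of same-numbered libraries correlated at -0.23 for Naive and Th17, 0.17 for Naive and Th1 and 0.08 for Th17 and Th1. With the replicate block edgeR called the same number of the 6 genes, 2, 2 and 0, and over all genes 1035, 1402 and 1041. DESeq2 with the replicate block called 2, 2 and 2 of the 6 genes, without *Tcf3* (adjusted p = 0.012) and *Tcf12* (adjusted p = 0.013) in Th17 relative to Naive, which DESeq2 without it called, and it called 1515, 1799 and 1630 genes over all, and 16 and 11 list genes in Th17 relative to Naive and in Th1 relative to Th17.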
